A study of Homo sapiens with 12 samples.

Results

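The transcripts described here are 10 genes of the microtubule system, taken from the 45416 genes of the deposited expression table by name. They are *MAPRE1*, *MAPRE2* and *MAPRE3*, the stathmin genes *STMN1* and *STMN3*, the α-tubulin gene *TUBA1B*, the β-tubulin genes *TUBB*, *TUBB3* and *TUBB6*, and the microtubule-associated protein gene *MAP1B*. *MAPRE1* and *STMN1* were chosen by their siRNA-against-siNC differences in CPM, which earlier results of these data had moving in opposite directions with the siRNAs against *CD274*, the gene that encodes PD-L1. Their differences from the control siRNA, and the dependence of these on IFNγ, are therefore given as a description, without a test. The IFNγ comparisons and the comparison of siPDL1-1 with siPDL1-2 are tested for every gene. The other members were also listed with earlier results of these data known. Their tests against siNC are therefore not tests of genes chosen blind.

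The study measured polyadenylated RNA by bulk RNA-seq in U251, an established human glioblastoma cell line, to follow PD-L1 knockdown with and without interferon-γ (IFNγ). Cells received the non-targeting siRNA siNC, labelled WT, or the siRNAs siPDL1-1 or siPDL1-2, both labelled PD-L1 knockdown, and 48 h later were left unstimulated or given IFNγ at 100 U/ml for 24 h. Each of the 6 groups had 2 libraries, 12 in all, with 17101069 to 55657393 reads on genes per library. All libraries came from 1 cell line and, per the methods of the study, from 2 experiments, and no untransfected cells were included. The limma p-values thus measure the spread between the 2 libraries of a group, pooled over the 6 groups, which may be partly technical. The spread was not equal in all groups, so the error is understated for a group with a wider one.

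Microtubules are polymers of α- and β-tubulin that grow and shrink at their plus ends, where EB proteins, encoded by the *MAPRE* genes, bind the growing tip and recruit other factors. Stathmins bind free tubulin and promote shrinkage, and MAPs such as MAP1B bind along the lattice and stabilise it. In dividing cells the same components build the mitotic spindle, and in glial and neuronal cells they shape processes and migration. Tubulin mRNA levels are also known to be lowered when free tubulin rises.

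The values are normalized CPM, read counts scaled to a common library size. *CD274*, the target of both siRNAs, was 4.60 and 4.91 CPM in unstimulated siNC cells, 2.67 and 2.73 CPM with siPDL1-1, and 3.57 and 3.45 CPM with siPDL1-2. After IFNγ it was 71.2 and 76.0 CPM in siNC cells, 60.9 and 66.7 CPM with siPDL1-1, and 37.5 and 35.0 CPM with siPDL1-2. Every library of the knockdown groups was thus below both siNC libraries of the same stimulation state. After IFNγ, however, the siPDL1-1 difference was only -0.20 on the log2 scale (limma FDR = 0.0498). Such separation was common, at 64.1% to 71.5% of the 17982 genes tested in each comparison of an siRNA with siNC. *IRF1*, an IFNγ-induced transcription factor, was 12.5 to 19.5 CPM without and 337 to 549 CPM with IFNγ.

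Among markers of the labelled cell type, *VIM* (3139 to 3968 CPM), *CD44* (421 to 669 CPM), *SOX2* (108 to 213 CPM) and *NES* (127 to 190 CPM) were abundant in all 12 libraries. The mature astrocyte markers *GFAP* (1.92 to 7.25 CPM), *S100B* (2.40 to 5.92 CPM) and *AQP4* (0.03 to 0.36 CPM) were low. Summed, the 8 listed glioma and astrocyte markers, which also include *EGFR*, were 3995 to 4920 CPM. *PTPRC* of leukocytes, *PECAM1* of endothelium and *EPCAM* of epithelium stayed at or below 0.297 CPM, and the neuronal marker *RBFOX3* at or below 0.671 CPM. The endothelial gene *VWF* reached 4.78 CPM and the epithelial gene *KRT5* 1.62 CPM. Summed, the 6 neuronal markers were 19.9 to 34.5 CPM, of which *GAD1* was the most abundant, the 2 endothelial ones 1.76 to 4.83 CPM and the 2 epithelial ones 0.352 to 1.69 CPM. *CD68*, a lysosomal gene of macrophages that other cells also express, was higher in every knockdown library than in siNC libraries of the same state. It was 28.2 and 28.6 CPM in unstimulated siNC cells against 36.7 and 39.3 CPM with siPDL1-1 and 43.99 and 40.9 CPM with siPDL1-2, and after IFNγ 41.7 and 41.0 CPM against 74.6 and 80.2 CPM and 46.9 and 50.5 CPM, while *PTPRC* stayed at or below 0.176 CPM. *GAD1* of inhibitory neurons was 9.11 to 20.3 CPM. The part of these genes in the results was not tested.

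The promoters of the 3 members that differed most from siNC with both siRNAs are shown so that their sequence can be read beside their values. They are the 250 bases before the RefSeq start site (GRCh38.p14), 5′ to 3′ on the gene's strand, at chr20:32819704-32819953 (+) for *MAPRE1*, chr1:25906420-25906669 (-) for *STMN1* and chr12:49131396-49131645 (-) for *TUBA1B*. Capitals mark CCAAT on either strand, the core of the box bound by NF-Y, a factor known at many cell-cycle promoters.
MAPRE1: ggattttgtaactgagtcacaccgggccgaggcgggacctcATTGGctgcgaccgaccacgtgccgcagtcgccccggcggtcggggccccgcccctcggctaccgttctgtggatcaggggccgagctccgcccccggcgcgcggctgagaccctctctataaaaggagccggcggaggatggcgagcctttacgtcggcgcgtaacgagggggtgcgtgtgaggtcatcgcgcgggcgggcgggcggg
STMN1: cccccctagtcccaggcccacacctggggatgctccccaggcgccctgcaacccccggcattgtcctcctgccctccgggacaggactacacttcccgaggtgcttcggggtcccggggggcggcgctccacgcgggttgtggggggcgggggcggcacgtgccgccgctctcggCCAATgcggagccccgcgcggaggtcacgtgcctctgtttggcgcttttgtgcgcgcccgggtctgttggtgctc
TUBA1B: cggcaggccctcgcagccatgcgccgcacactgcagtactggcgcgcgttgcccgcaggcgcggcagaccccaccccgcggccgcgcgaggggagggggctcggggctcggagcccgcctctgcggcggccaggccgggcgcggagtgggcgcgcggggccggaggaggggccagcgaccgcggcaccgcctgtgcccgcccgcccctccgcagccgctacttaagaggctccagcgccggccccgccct
*MAPRE1* had 1 match, beginning 209 bases before the start on the reverse strand, *STMN1* had 1 at 75 bases before this start and none before its other 2 listed starts, and *TUBA1B* had none. CCAAT was also present before at least 1 start of *MAPRE3*, *TUBB*, *TUBB3* and *TUBB6*, and it occurs in 32% of 35116 promoter windows of this length. TTTGAA, the core of the CHR element of G2/M genes, was found before 1 start of *MAP1B* (13.3% of windows). The core of the interferon-stimulated response element, a GAAA repeat with any pair of bases between (3.02% of windows), was not found in a member's window. Both strands were searched and these matches are letters only.

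*MAPRE1* encodes EB1, the plus-end tracking protein on which most other tip-binding proteins depend. The gene lies at chr20:32819954-32850405 (GRCh38, + strand) and its main transcript has 7 exons. In siNC cells it was at 63.7 and 60.5 CPM unstimulated and at 71.0 and 71.1 CPM after IFNγ. With siPDL1-1 it was at 161 and 162 CPM, and at 168 and 173 CPM after IFNγ. With siPDL1-2 it was at 164 and 162 CPM, and at 164 and 169 CPM after IFNγ. The 8 knockdown libraries lay in a narrow band far above the 4 siNC libraries, and the bands did not overlap. The gene was chosen for this difference. In each comparison of an siRNA with siNC, 64.1% to 71.5% of all genes tested had no overlap.

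The *MAPRE1* log2 fold changes against siNC were 1.36 with siPDL1-1 and 1.38 with siPDL1-2 in unstimulated cells, and 1.25 and 1.21 after IFNγ, each with a standard error of 0.042. These are 2.32- to 2.60-fold higher levels and are a description, since the gene was chosen for them. The siRNAs share the siNC libraries, but they could be compared with each other directly. The gene was chosen for its shift with the siRNAs in these same libraries. A small difference between the siRNAs is thus no independent sign that they agree. *MAPRE1* differed between siPDL1-1 and siPDL1-2 by -0.01 on the log2 scale (95% confidence interval -0.10 to 0.08, limma FDR = 0.833) in unstimulated cells and by 0.04 (-0.05 to 0.12, limma FDR = 0.618) after IFNγ. A difference as large as 1.5-fold lay outside both intervals.

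For IFNγ, the *MAPRE1* log2 difference in siNC cells was 0.19 (SE 0.042, limma FDR = 0.00197), under the 1.5-fold threshold used here. It was 0.08 (limma FDR = 0.180) with siPDL1-1 and 0.03 (limma FDR = 0.660) with siPDL1-2. The interaction, the siRNA difference after IFNγ less that in unstimulated cells, was -0.12 for siPDL1-1 and -0.16 for siPDL1-2. It is built from the differences that chose the gene, so it is a description and carries no test.

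*MAPRE2* and *MAPRE3*, which encode EB2 and EB3, did not share the high level of *MAPRE1* in knockdown cells. *MAPRE2* was 21.4 and 22.1 CPM in unstimulated siNC cells and 26.7 and 27.5 CPM after IFNγ. In the knockdown groups it ranged from 18.0 to 19.1 CPM unstimulated and from 20.2 to 22.6 CPM after IFNγ. After IFNγ it was lower than in siNC cells by log2 differences of -0.30 (limma FDR = 0.00373) with siPDL1-1 and -0.35 (limma FDR = 0.00163) with siPDL1-2. Both were under 1.5-fold, so *MAPRE2* did not pass the test in any comparison.

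*MAPRE3* was 65.2 CPM in both unstimulated siNC libraries and, after IFNγ, 58.4 ± 2.33 CPM (SD, n = 2). Cells given siPDL1-1 had 60.8 and 58.2 CPM, then 53.8 and 55.7 CPM with IFNγ, and those given siPDL1-2 had 54.1 and 55.1 CPM, then 49.6 and 49.3 CPM. The lowest values were those of siPDL1-2, with log2 differences from siNC of -0.25 (limma FDR = 9.5e-04) unstimulated and -0.23 (limma FDR = 0.0025) after IFNγ, again under 1.5-fold. Per kilobase of transcript, *MAPRE3* had the highest mean level of the family in siNC cells, at 34.5 CPM per kb unstimulated and 30.9 after IFNγ against 24.2 and 27.7 for *MAPRE1*. In the knockdown groups *MAPRE1* had 63.0 to 66.5 CPM per kb and *MAPRE3* 26.2 to 31.5, and *MAPRE2* was the lowest in every group (4.40 to 6.43).

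*STMN1* encodes stathmin (oncoprotein 18), which sequesters tubulin dimers and is abundant in proliferating cells. It lies at chr1:25884181-25906991 (GRCh38, - strand), with 5 exons in its main transcript. In siNC cells it was at 494 and 469 CPM unstimulated and at 468 and 485 CPM after IFNγ. With siPDL1-1 it was at 307 and 305 CPM, and at 271 and 281 CPM after IFNγ. With siPDL1-2 it was at 267 and 261 CPM, and at 241 and 227 CPM after IFNγ. All 8 knockdown libraries were below all 4 siNC libraries, a difference for which the gene was chosen. The siPDL1-2 libraries were below siPDL1-1 libraries of the same stimulation state. Between the siRNAs, 72.5% of all genes tested did not overlap unstimulated and 51.1% after IFNγ.

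As a description, *STMN1* differed from siNC by log2 fold changes of -0.65 and -0.86 with siPDL1-1 and siPDL1-2 unstimulated, and by -0.78 and -1.02 after IFNγ (SE 0.0422 each). Between the siRNAs, *STMN1* was 0.21 higher with siPDL1-1 unstimulated (95% confidence interval 0.12 to 0.30, limma FDR = 0.00123) and 0.24 higher after IFNγ (0.15 to 0.33, limma FDR = 0.00107), under 1.5-fold in both. The libraries of this contrast also entered the choice of the gene. IFNγ gave -0.02 (limma FDR = 0.809) in siNC cells, -0.15 (limma FDR = 0.0135) with siPDL1-1 and -0.17 (limma FDR = 0.00667) with siPDL1-2. The interactions were -0.13 for siPDL1-1 and -0.16 for siPDL1-2, again as a description without a test. The ratio of *MAPRE1* to *STMN1* CPM was 0.129 to 0.152 in the siNC libraries and 0.523 to 0.742 in the knockdown libraries.

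**Figure D1:**
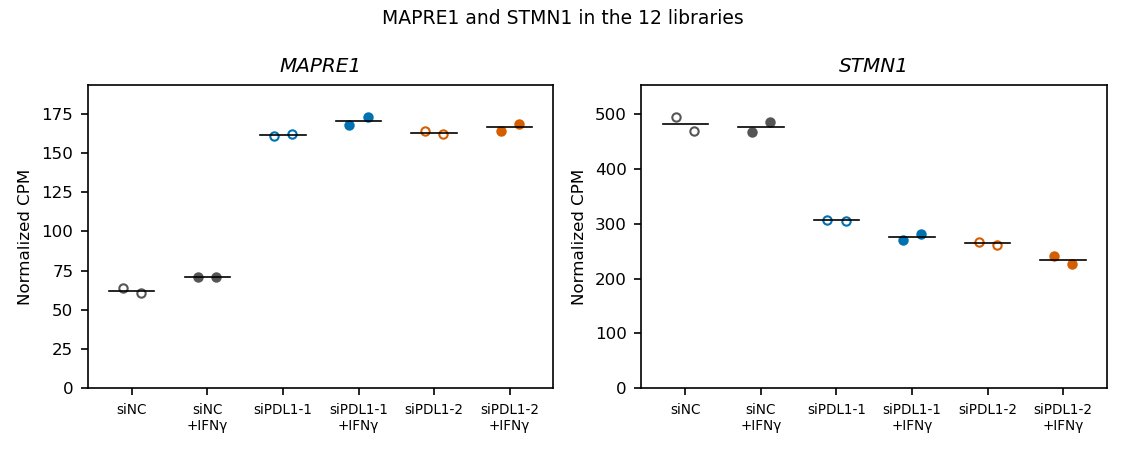
Normalized CPM (linear axes from 0) of *MAPRE1* and *STMN1* in each of the 12 libraries, 2 per group (open points unstimulated, filled points IFNγ, horizontal bars the mean of the 2). *MAPRE1* lies at 60.5 to 71.1 CPM in siNC libraries and at 161 to 173 CPM in knockdown libraries, and *STMN1* at 468 to 494 against 227 to 307 CPM.

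*STMN3*, a stathmin of the nervous system also known as SCLIP, separated the siRNAs. It was 10.7 and 8.78 CPM in unstimulated siNC cells and 13.4 and 11.9 CPM after IFNγ. Under siPDL1-1 it was 28.6 and 28.9 CPM, and 35.0 and 32.3 CPM after IFNγ. Under siPDL1-2 it was 10.7 and 10.7 CPM, and 14.95 and 16.3 CPM after IFNγ. The siPDL1-1 libraries stood far above all others. After IFNγ the siPDL1-2 libraries were also above both siNC libraries, by less (64.5% of all genes tested did not overlap there).

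Against siNC, *STMN3* rose with siPDL1-1 by 1.48 on the log2 scale (SE 0.0896, limma FDR = 2.51e-08) unstimulated and by 1.34 (limma FDR = 3.12e-08) after IFNγ. With siPDL1-2 the same differences were 0.13 (limma FDR = 0.264) and 0.28 (limma FDR = 0.0271). The direct comparison of siPDL1-1 with siPDL1-2 gave 1.34 (95% confidence interval 1.15 to 1.54, limma FDR = 1.35e-07) unstimulated and 1.06 (0.87 to 1.25, limma FDR = 8.47e-07) after IFNγ. *STMN2* and *STMN4*, the other stathmins, did not pass the filter on low counts.

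*TUBA1B* encodes the main ubiquitous α-tubulin and lies at chr12:49127782-49131397 (GRCh38, - strand). It was 1923 and 1889 CPM in unstimulated siNC cells and 1732 and 1755 CPM after IFNγ. Under siPDL1-1 it was 1081 and 1087 CPM, and 925 and 895 CPM after IFNγ. With siPDL1-2 it was 946 and 936 CPM, and 875 and 907 CPM after IFNγ. The lowest siNC library was above the highest knockdown library. Separation within a comparison with siNC was common, at 64.1% to 71.5% of all genes tested.

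*TUBA1B* fell against siNC in all comparisons with the siRNAs, by 0.81 (limma FDR = 4.38e-10) with siPDL1-1 and by 1.02 (limma FDR = 2.8e-11) with siPDL1-2 unstimulated, and by 0.94 (limma FDR = 1.52e-11) and 0.97 (limma FDR = 9.61e-11) after IFNγ, with an SE of 0.0325 on the log2 scale. Unstimulated cells had slightly more *TUBA1B* with siPDL1-1 than with siPDL1-2 (log2 difference 0.20, limma FDR = 2.26e-04, under 1.5-fold). Tubulin genes are near-identical in their coding sequence and the mapping allowed reads with several hits, so values of single tubulin genes are uncertain in their split between relatives.

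The relatives were therefore looked at together. *TUBA1C* was 522 and 513 CPM in unstimulated siNC cells against 357 to 370 CPM in unstimulated knockdown cells, with log2 differences of -0.49 (limma FDR = 6.13e-07) and -0.53 (limma FDR = 2.56e-07) that did not reach 1.5-fold. *TUBA1A*, the α-tubulin prominent in neural tissue, was 349 and 339 CPM against 315 to 373 CPM, with log2 differences of -0.11 (limma FDR = 0.0635) and 0.08 (limma FDR = 0.141). Summed over the 9 listed α-tubulin genes per kilobase of transcript, the level was 1604 and 1572 CPM per kb in unstimulated siNC libraries, 1015 in both unstimulated siPDL1-1 libraries and 956 and 937 in the siPDL1-2 libraries. *TUBA1B* made up 73.7% and 73.9% of this sum in unstimulated siNC, 65.4% and 65.8% with siPDL1-1 and 60.8% and 61.4% with siPDL1-2, while *TUBA1A* made up 12.9%, 18.8% and 23.0% as group means. These shares carry no test.

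*TUBB*, the main β-tubulin gene of dividing cells (chr6:30720352-30725426, + strand), and *TUBA1B* were the most abundant members per kb of transcript. In siNC cells *TUBA1B* had the higher mean, at 1172 against 951 CPM per kb unstimulated and 1072 against 842 after IFNγ, and in the 4 knockdown groups *TUBB* did, at 654 to 781 against 548 to 666 CPM per kb. *TUBB* was 2404 and 2380 CPM in unstimulated siNC cells and 2107 and 2130 CPM after IFNγ. With siPDL1-1 it was 1954 and 1975 CPM, then 1686 and 1601 CPM, and with siPDL1-2 it was 1866 and 1860 CPM, then 1820 and 1843 CPM. Its direction was that of *TUBA1B* with a smaller size.

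The *TUBB* differences from siNC were -0.28 (limma FDR = 9.26e-06) and -0.36 (limma FDR = 7.43e-07) unstimulated and -0.37 (limma FDR = 4.48e-07) and -0.21 (limma FDR = 1.83e-04) after IFNγ, for siPDL1-1 and siPDL1-2 in that order, all under 1.5-fold. IFNγ gave -0.18 (limma FDR = 4.33e-04) in siNC cells, -0.26 (limma FDR = 1.43e-05) with siPDL1-1 and -0.02 (limma FDR = 0.609) with siPDL1-2. *TUBB4B*, the next most abundant β-tubulin, was 330 and 331 CPM in unstimulated siNC cells and 206 to 215 CPM in unstimulated knockdown cells. *TUBB4B* fell by 0.62 (limma FDR = 2.57e-07) with siPDL1-1 and by 0.68 (limma FDR = 9.14e-08) with siPDL1-2 unstimulated, and by 0.59 (limma FDR = 2.09e-07) with siPDL1-1 after IFNγ, the last a call that DESeq2 did not make. With siPDL1-2 after IFNγ its log2 difference was -0.34 (limma FDR = 1.04e-04). *TUBB* kept 70.0% to 73.4% of the summed β-tubulin level per kb in every library.

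*TUBB3*, the class III β-tubulin of neurons and of many glioblastomas, was 103 CPM in both unstimulated siNC libraries and 84.4 and 73.0 CPM after IFNγ. With siPDL1-1 it was 104 and 102 CPM, then 93.4 and 77.8 CPM, and with siPDL1-2 it was 87.3 and 90.3 CPM, then 92.5 and 102 CPM. IFNγ libraries were thus lower than unstimulated ones in siNC and siPDL1-1 cells but not with siPDL1-2. For IFNγ, 69.6% of all genes tested did not overlap in siNC cells and 65.8% in siPDL1-1 cells. The IFNγ log2 differences were -0.39 (limma FDR = 0.00253), -0.27 (limma FDR = 0.0224) and 0.13 (limma FDR = 0.272) for siNC, siPDL1-1 and siPDL1-2. Tested as an interaction, the siPDL1-2 difference from siNC shifted by 0.52 with IFNγ (95% confidence interval 0.26 to 0.78, limma FDR = 0.00577), under 1.5-fold, and it passed 1.5-fold without siNC IFNγ replicate 1 (0.62) or siPDL1-2 IFNγ replicate 1 (0.59).

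*TUBB6*, the class V β-tubulin, ranged from 66.8 CPM to 93.6 CPM over the 12 libraries with a median of 76.9 CPM. Its lowest values were 66.8 and 68.2 CPM in unstimulated siPDL1-2 cells, against 86.1 and 93.6 CPM in unstimulated siNC cells (log2 difference -0.41, limma FDR = 4.87e-05, under 1.5-fold). The gene overlaps *AFG3L2* on the opposite strand, which was itself 56.1 to 73.9 CPM, and reads of both strands were counted, so the genes cannot be told apart where they overlap.

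**Figure D2:**
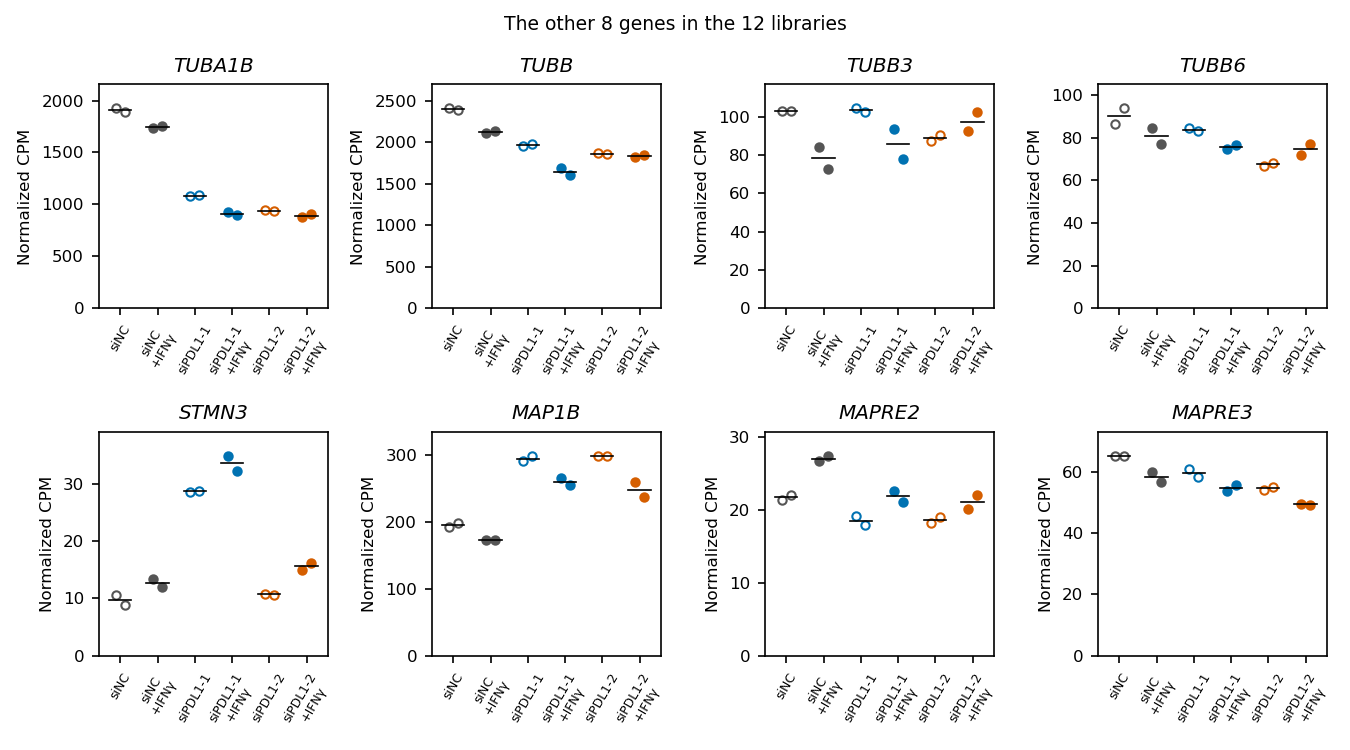
Normalized CPM (linear axes from 0) of the other 8 genes in each of the 12 libraries, 2 per group (open points unstimulated, filled points IFNγ, horizontal bars the mean of the 2). *TUBA1B* is at 1732 to 1923 CPM in siNC and 875 to 1087 CPM in knockdown libraries, *STMN3* lies between 28.6 and 35.0 CPM in siPDL1-1 libraries and at or below 16.3 CPM in all others, and *MAP1B* lies between 237 and 299 CPM in knockdown libraries.

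*MAP1B* encodes a large lattice-binding protein of neurons and glia, at chr5:72107234-72209565 (GRCh38, + strand). It was 193 and 199 CPM in unstimulated siNC cells and 173 and 172 CPM after IFNγ. Cells given siPDL1-1 had 291 and 299 CPM, then 266 and 255 CPM, and with siPDL1-2 it was 299 CPM in both libraries, then 260 and 237 CPM. Knockdown libraries were above every siNC library, where 64.1% to 71.5% of all genes tested did not overlap in each comparison with siNC.

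*MAP1B* rose by 0.59 on the log2 scale with siPDL1-1 (limma FDR = 2.42e-07) and by 0.61 with siPDL1-2 (limma FDR = 1.46e-07) unstimulated, and by 0.59 with siPDL1-1 after IFNγ (limma FDR = 1.17e-07). With siPDL1-2 after IFNγ it was 0.52 higher (limma FDR = 1.37e-06), which is under 1.5-fold. All these values lie at the fold threshold, and edgeR and DESeq2 put both unstimulated differences just under it (0.55 to 0.58). So did leaving out siNC replicate 1 or siPDL1-1 replicate 2 in the unstimulated siPDL1-1 comparison (0.57 each) and siPDL1-1 replicate 1 in that after IFNγ (0.56). The siPDL1-2 difference after IFNγ passed it without siPDL1-2 replicate 2 (0.59). IFNγ gave -0.18 (limma FDR = 0.00506), -0.18 (limma FDR = 0.00637) and -0.27 (limma FDR = 4.23e-04) in siNC, siPDL1-1 and siPDL1-2 cells.

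**Figure D3:**
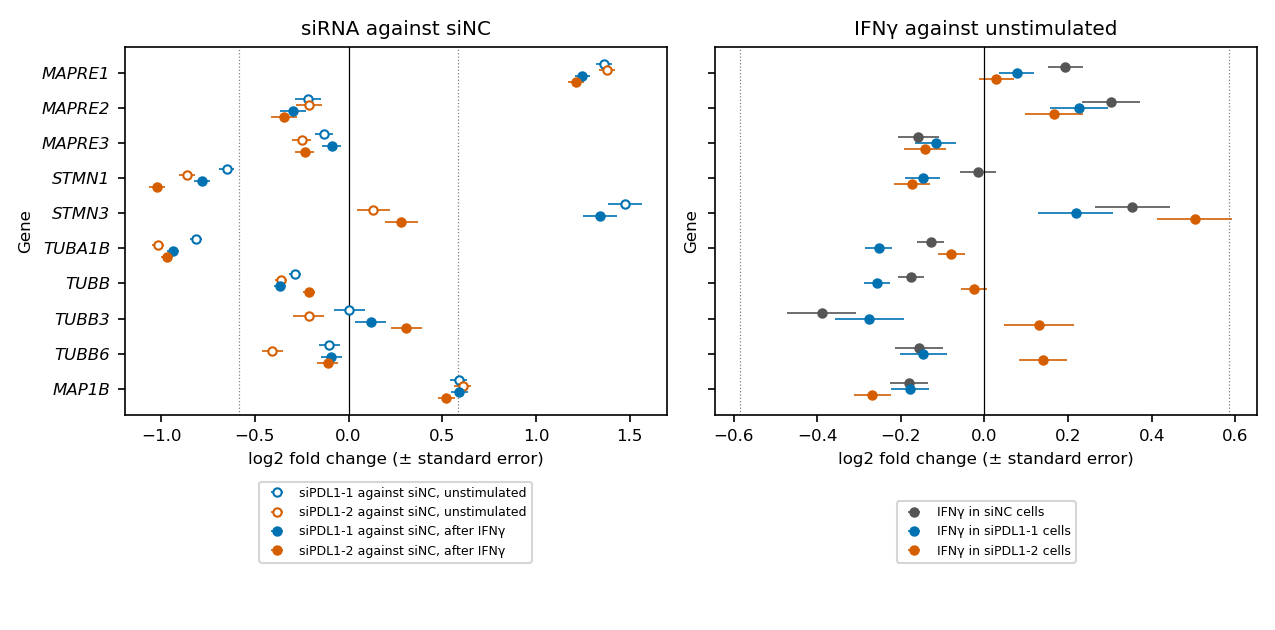
Log2 fold changes (limma, ± standard error) of the 10 genes for the siRNAs against siNC (left) and for IFNγ against unstimulated cells (right), with dotted lines at 1.5-fold. *MAPRE1* lies at 1.21 to 1.38 and *STMN1* at -1.02 to -0.65 in the siRNA comparisons, which are a description for these 2 genes, and no IFNγ difference reaches 1.5-fold.

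Over the members together, all 10 of which passed the filter on low counts, 3 were higher and 2 lower than siNC past FDR < 0.01 and 1.5-fold with siPDL1-1 unstimulated (4.00% of 17982 genes tested were called, 2.55% higher and 1.45% lower). With siPDL1-2 unstimulated, 2 were higher and 2 lower (6.17% of all genes called, 4.84% higher and 1.33% lower). After IFNγ 3 were higher and 2 lower with siPDL1-1 (5.47% called, 3.73% higher and 1.75% lower), and 1 higher and 2 lower with siPDL1-2 (3.13% called, 1.92% higher and 1.20% lower). *MAPRE1* and *STMN1* are in each of these counts by choice, so nothing is read from the shares. The members' median log2 differences were -0.12, -0.23, -0.09 and -0.16 in these comparisons, against 0.02, 0.03, -0.00486 and -0.00608 over all genes.

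Between siPDL1-1 and siPDL1-2, *STMN3* was the 1 member past both thresholds, unstimulated (4.35% of genes called, 0.884% higher and 3.47% lower) and after IFNγ (2.23% called, 1.79% higher and 0.439% lower). For IFNγ, 0 of 10 members passed by limma in siNC cells (8.12% of genes called), siPDL1-1 cells (6.87% called) or siPDL1-2 cells (5.27% called). At an unadjusted p under 0.05 the counts were 9, 9 and 7 of 10, beside 46.2%, 42.5% and 39.6% of all genes, and edgeR and DESeq2 called 0 in each. The IFNγ medians were -0.14, -0.15 and 0.00192 over the members against 0.00123, -0.02 and -0.01 over all genes.

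At FDR < 0.01 whatever the fold, limma gave 6 members with siPDL1-1 unstimulated (18.8% of all genes), 7 with siPDL1-2 unstimulated (28.4%), 7 with siPDL1-1 after IFNγ (23.8%) and 7 with siPDL1-2 after IFNγ (18.4%), *MAPRE1* and *STMN1* included by choice. For IFNγ it gave 7 in siNC (27.3%), 3 in siPDL1-1 (22.9%) and 3 in siPDL1-2 cells (17.1%). Between the siRNAs it gave 4 unstimulated (24.1%) and 3 after IFNγ (10.5%), and in the interactions 0 for siPDL1-1 (1.63%) and 1, *TUBB3*, for siPDL1-2 (17.1%).

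The genes whose pattern over the 12 libraries was most like that of *MAPRE1* (Pearson correlation of log2 values among 10257 genes of at least 10 CPM) were *SLC31A1* (0.996), *CBX1* (0.995), *LIX1L* (0.994), *GPD1L* (0.985) and *ST13* (0.982). *CBX1*, which encodes the heterochromatin protein HP1β, was 46.8 to 52.2 CPM in siNC and 133 to 145 CPM in knockdown libraries. For *STMN1* they were *PARP1* (0.989), *NQO1* (0.984), *LMNB1* (0.983), *TGIF2* (0.983) and *TUBA1B* (0.982). The 12 points share 6 conditions and the same siNC libraries, so these values rank genes and nothing more.

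Beyond the 10 members, 141 genes of the microtubule system were listed in 11 classes, members included, and all but 9 passed the filter. Past both thresholds, 4 were higher and 7 lower with siPDL1-1 unstimulated (median -0.05), 5 higher and 4 lower with siPDL1-2 unstimulated (-0.09), 4 higher and 10 lower with siPDL1-1 after IFNγ (-0.08), and 2 higher and 4 lower with siPDL1-2 after IFNγ (-0.07). The background shares of called genes are those given above, and the shares of the list were 8.33%, 6.82%, 10.6% and 4.55%. Without the 10 members they were 4.92%, 4.10%, 7.38% and 2.46%.

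Outside the members, 1, 3, 1 and 1 of 122 listed genes rose with siPDL1-1 and siPDL1-2 unstimulated and with siPDL1-1 and siPDL1-2 after IFNγ. Over all genes 2.55%, 4.84%, 3.73% and 1.92% were called higher. *VASH1*, a tubulin carboxypeptidase that removes the terminal tyrosine of α-tubulin, was 16.3 and 18.0 CPM in unstimulated siNC cells and 27.6 and 28.6 CPM with siPDL1-1. It rose by 0.68 (limma FDR = 2.25e-05) with siPDL1-1 unstimulated, and after IFNγ by 0.85 (limma FDR = 1.89e-06) with siPDL1-1 and by 0.65 (limma FDR = 5.12e-05) with siPDL1-2, though in the last case leaving out siPDL1-2 IFNγ replicate 1 gave 0.51. With siPDL1-2 unstimulated, *TBCEL*, a tubulin-folding cofactor relative, rose by 0.70 (limma FDR = 1.68e-06), the severing enzyme gene *SPAST* by 0.68 (limma FDR = 0.00142) and the spindle gene *HMMR* by 0.97 (limma FDR = 9.14e-08). *SPAST* was no longer past FDR < 0.01 without siNC replicate 2 (0.0139) or siPDL1-2 replicate 2 (0.013) of the unstimulated groups.

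Outside the members, 5, 2, 8 and 2 listed genes fell with siPDL1-1 and siPDL1-2 unstimulated and with siPDL1-1 and siPDL1-2 after IFNγ. *DLGAP5*, a kinetochore-fibre protein, was 85.9 and 85.7 CPM in unstimulated siNC cells and 54.9 and 55.03 CPM with siPDL1-1. It fell by 0.63 (limma FDR = 1.12e-07) with siPDL1-1 unstimulated and by 0.89 (limma FDR = 1.25e-09) after IFNγ. *ASPM*, a spindle-pole protein, fell after IFNγ by 0.88 (limma FDR = 1.28e-07) with siPDL1-1 and by 0.68 (limma FDR = 5.25e-06) with siPDL1-2, the second being 0.54 lower without siPDL1-2 IFNγ replicate 2. *GTSE1*, also of the spindle class, fell with siPDL1-2 unstimulated by 0.61 (limma FDR = 1.3e-06; -0.56 without siPDL1-2 replicate 1). Of 11 spindle genes, 2, 1, 6 and 1 fell with siPDL1-1 unstimulated, siPDL1-2 unstimulated, siPDL1-1 after IFNγ and siPDL1-2 after IFNγ, with class medians of -0.50, -0.21, -0.60 and -0.40. Over all genes 1.45%, 1.33%, 1.75% and 1.20% were called lower.

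Genes of other classes were called as well. *FIGNL1*, an AAA ATPase of the severing family, fell with siPDL1-1 by 0.64 (limma FDR = 8.63e-05; -0.55 without siPDL1-1 replicate 1) unstimulated and by 0.79 (limma FDR = 8.7e-06) after IFNγ. *HAUS2*, an augmin subunit that branches spindle microtubules, fell with siPDL1-2 after IFNγ by 0.60 (limma FDR = 1.68e-05; -0.56 without siPDL1-2 IFNγ replicate 1 and with plain CPM). None of the 21 plus-end binding genes apart from the EB family was called against siNC by limma, where 10 to 16 of them reached an unadjusted p under 0.05 (38.9% to 48.2% of all genes) and edgeR and DESeq2 each called 1 with siPDL1-2 unstimulated.

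**Figure D4:**
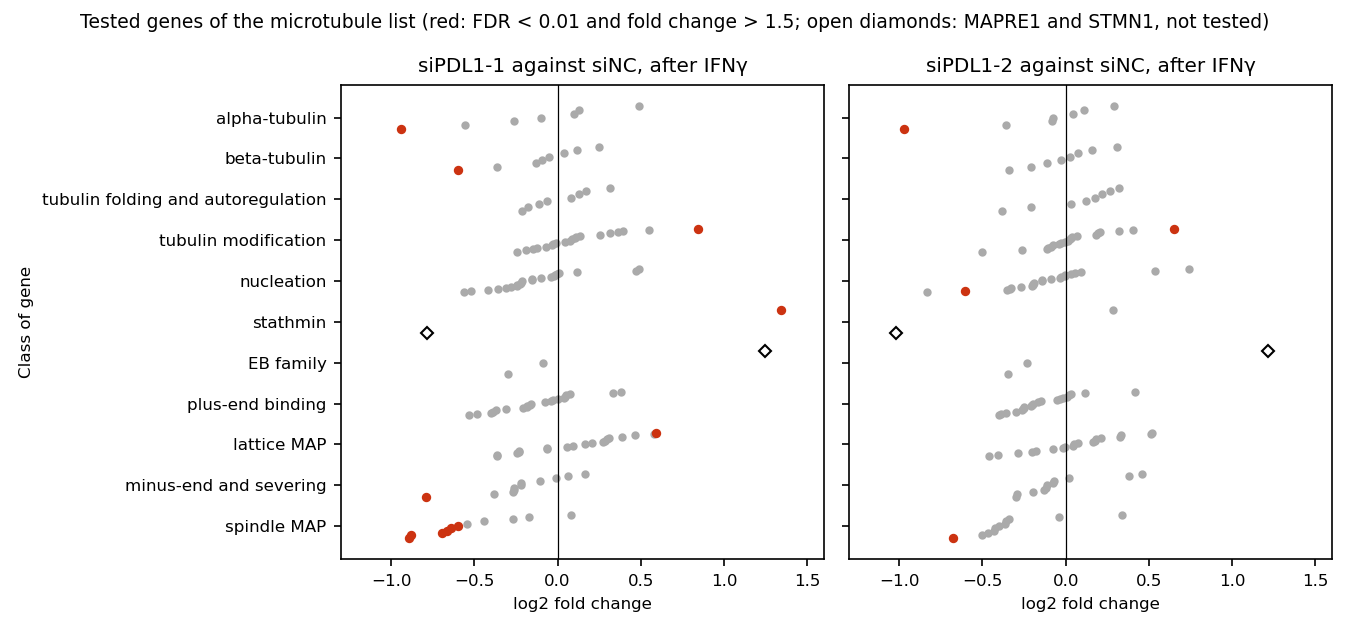
Log2 fold changes of the tested microtubule genes by class for siPDL1-1 (left) and siPDL1-2 (right) against siNC after IFNγ, 1 point per gene (red past FDR < 0.01 and 1.5-fold, grey not, open diamonds *MAPRE1* and *STMN1*, whose values here are a description). With siPDL1-1, 6 of 11 spindle genes are called lower (1.75% of all genes), and with siPDL1-2, 1 is (1.20%).

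Proliferation genes were counted in the same comparisons. Of 12 (among them *MKI67*, *TOP2A* and *CCNB1*), 7 fell with siPDL1-1 unstimulated, 2 with siPDL1-2 unstimulated, 11 with siPDL1-1 after IFNγ and 2 with siPDL1-2 after IFNγ, and 0 rose, where 1.45%, 1.33%, 1.75% and 1.20% of all genes were called lower. Their medians were -0.60, -0.49, -0.75 and -0.46. *MKI67* was 864 and 886 CPM in unstimulated siNC libraries, 553 CPM in both siPDL1-1 libraries and 599 and 583 CPM with siPDL1-2. Mitochondrial transcripts took 4.85% to 5.17% of the reads in siNC libraries and 5.44% to 6.63% in knockdown libraries. The part of either in the *MAPRE1*, *STMN1*, *TUBA1B* and spindle values was not tested, and fewer cells of a kind cannot be told apart from less RNA per cell in bulk libraries.

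In the IFNγ comparisons 4 listed genes rose and 1 fell in siNC cells, 5 rose and 2 fell with siPDL1-1, and 3 rose and 2 fell with siPDL1-2, which is 3.79%, 5.30% and 3.79% of those tested, beside 8.12%, 6.87% and 5.27% of all genes. *CLIP1*, which encodes the plus-end protein CLIP-170, was 92.5 and 92.9 CPM in unstimulated and 191 and 189 CPM in IFNγ-treated siNC cells. It rose by 1.03 (limma FDR = 2.23e-11) there and by 0.69 (limma FDR = 2.63e-09) with siPDL1-1, and its difference with siPDL1-2 was 0.54 (limma FDR = 8.23e-08), under 1.5-fold. *CYLD*, a deubiquitinase that binds microtubules, rose by 1.04 (limma FDR = 7.3e-11), 1.26 (limma FDR = 4.98e-12) and 0.69 (limma FDR = 1.6e-08) in siNC, siPDL1-1 and siPDL1-2 cells. *PSRC1*, a spindle and plus-end protein, rose by 0.59 (limma FDR = 5.78e-07), 0.69 (limma FDR = 9.39e-08) and 0.99 (limma FDR = 1.58e-09). The first of these is at the fold threshold and is 0.57 by edgeR and 0.56 by DESeq2.

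*DCLK2*, a doublecortin-family kinase, fell with IFNγ in all 3 siRNA groups, by 0.71 (limma FDR = 2e-06), 0.76 (limma FDR = 9.02e-07) and 0.72 (limma FDR = 2.22e-06). *MAP9* rose by 0.66 (limma FDR = 6.25e-06; 0.57 with plain CPM, under 1.5-fold) in siNC cells and *MTUS1* by 0.70 (limma FDR = 5.11e-07) with siPDL1-1. With siPDL1-2, *MAP1S* rose by 0.65 (limma FDR = 0.00632) and *TPPP3* fell by 0.60 (limma FDR = 0.00281), and both calls were lost when single libraries were left out (FDR up to 0.0518 and 0.0334), that of *TPPP3* also by DESeq2 (FDR 0.0327). Chosen after their values were seen, *TUBA8* (0.78, limma FDR = 0.00905) and *MAP7D2* (-0.67, limma FDR = 5.63e-04) complete the siPDL1-1 calls. Neither met the conditions for naming, a mean of at least 1 CPM and no overlap of libraries. *TUBA8* was called by neither edgeR nor DESeq2, and it was 0.174 and 0.0706 CPM unstimulated and 0.596 and 1.32 CPM after IFNγ in those cells.

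Between the siRNAs, 1 listed gene was higher and 7 lower with siPDL1-1 than with siPDL1-2 unstimulated, and 1 higher and 2 lower after IFNγ. These were 6.06% and 2.27% of the listed genes tested, beside 4.35% and 2.23% of all genes. *STMN3* was the higher one in both. The lower ones unstimulated included *SPAST* (log2 difference -0.93, limma FDR = 2.28e-04), *FIGNL1* (-0.91, limma FDR = 4.71e-06), *TBCEL* (-0.68, limma FDR = 4.5e-06) and *TUBE1*, which encodes ε-tubulin (-0.66, limma FDR = 5.93e-06). After IFNγ they were *CAMSAP3*, a minus-end binder (-0.64, limma FDR = 4.16e-04), and *FIGNL1* (-0.60, limma FDR = 2.98e-04). Leaving out single IFNγ libraries moved these last differences below 1.5-fold, to -0.54 for *CAMSAP3* without siPDL1-2 replicate 2 and to -0.45 and -0.56 for *FIGNL1* without siPDL1-1 or siPDL1-2 replicate 1.

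The dependence of the siRNA differences on IFNγ was tested as an interaction. *MAPRE1* and *STMN1* are in the member counts, although they were chosen by differences that enter this contrast. Nothing is therefore read from the member counts, including those at an unadjusted p. For siPDL1-1, 0 of the 10 members and 0 of the listed genes passed by limma (0.968% of all genes called), with 2 and 27 at an unadjusted p under 0.05 (15.5% of all genes) and 0 calls by edgeR or DESeq2. For siPDL1-2, 0 of 10 members passed by limma (7.62% of all genes called), with 5 at an unadjusted p under 0.05 (39.6% of all genes) and 0 by the other tools. In the list 2 genes shifted up and 7 down, and the 11 minus-end and severing genes held 1 of the former and 3 of the latter. *MAP9*, a spindle-associated MAP, was 51.7 and 54.8 CPM in unstimulated siPDL1-2 cells and 43.3 and 41.8 CPM after IFNγ, where siNC cells went from 36.7 and 34.3 to 55.9 and 57.3 CPM (interaction -0.98, limma FDR = 4.29e-05).

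Among β-tubulins, 4 of 8 shifted upward at FDR < 0.01 without the fold threshold in the siPDL1-2 interaction (5.16% of all genes shifted upward at that FDR). By limma 0 of the 8 also passed 1.5-fold, with 6 at an unadjusted p under 0.05 (39.6% of all genes), while edgeR and DESeq2 each called 1. They were *TUBB2A* (0.57, limma FDR = 0.00112), *TUBB3* (0.52, limma FDR = 0.00577), *TUBB4A* (0.46, limma FDR = 0.00125) and *TUBB4B* (0.33, limma FDR = 0.00206), of which *TUBB2A* and *TUBB4A* were chosen after their values were seen. The summed β-tubulin level per kb was 1338 and 1335 CPM per kb in unstimulated and 1180 and 1161 in IFNγ-treated siNC cells. It was 1084 and 1087, then 949 and 898, with siPDL1-1, and 1011 in both libraries, then 1011 and 1047, with siPDL1-2. The siPDL1-2 cells alone had no lower sum after IFNγ.

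**Figure D5:**
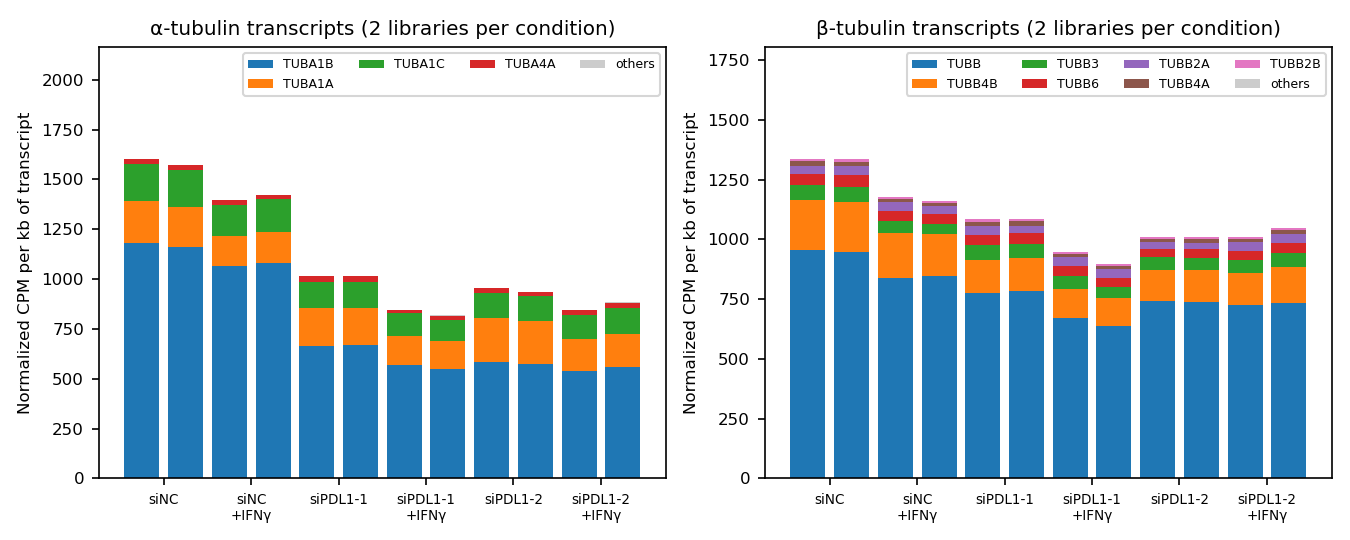
Summed level of the α-tubulin (left) and β-tubulin (right) genes in each of the 12 libraries, in normalized CPM per kb of transcript, stacked by gene. The α-tubulin sum is 1398 to 1604 in siNC and 818 to 1015 in knockdown libraries, and the β-tubulin sum is 1161 to 1338 and 898 to 1087.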

How the data were processed

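The authors sequenced the 12 libraries, processed the trimmed reads in CLC Genomics Workbench against GRCh38 (up to 10 hits for a read, both strands counted) and deposited 1 table of normalized CPM, a signal scaled by library size and a TMM factor. The members and lists were chosen with earlier results of these data known. The listed genes to name were, for each comparison, the 4 called genes with the largest increase and the 4 with the largest decrease among those of at least 1 CPM whose libraries did not overlap, with the 5 genes most correlated with MAPRE1 and with STMN1; others are stated as chosen after their values were seen. Dividing by the value of 1 read (0.0187 to 0.0586 CPM) gave whole reads for 100% of values within 0.05 read, so depth could be read (17101069 to 55657393 reads); a count of 3 reads is 0.0562 to 0.176 CPM. Genes were filtered with filterByExpr of edgeR (minimum count 10, total 15) to 17982. Log2(CPM + 1) was fitted over the 6 groups by limma with trend and robust options, and genes were called at a Benjamini-Hochberg FDR under 0.01, the FDR limit the authors used, and a fold change over 1.5. Fold changes on this scale understate those of low genes. As the table is normalized, count tests served as alternatives: on those whole reads, the quasi-likelihood test of edgeR called 872, 1353, 1247 and 755 genes (limma 720, 1110, 984 and 562) for siPDL1-1 and siPDL1-2 unstimulated and after IFNγ. Others were DESeq2, its size factors, plain CPM, a pseudocount of 0.1, no filter, each stimulation state alone, a replicate block and leaving out each library. Libraries of a group differed beyond counting noise. Transcript lengths were those of GENCODE, promoters those of RefSeq. The scripts were tested on simulated data. Figures used matplotlib 3.10.9 under Python 3.11.15, and tests used DESeq2 1.42.0, edgeR 4.0.16 and limma 3.58.1 under R 4.3.3.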

Additional observations from a re-analysis of the deposited data

Results flagged for a closer look

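The siPDL1-2 difference from siNC was not the same in unstimulated and IFNγ-treated cells for 9 listed genes, by limma's test of the interaction (FDR < 0.01 and over 1.5-fold). These were 6.82% of the listed genes tested, beside 7.62% of all genes. The difference was higher after IFNγ for *MZT2A*, a γ-tubulin complex subunit (1.08 on the log2 scale, limma FDR = 0.00762), and *CAMSAP3* (0.80, limma FDR = 9.51e-04). It was lower after IFNγ for *MAP9* (-0.98), the severing genes *SPAST* (-0.75) and *KATNAL1* (-0.74), the polyglutamylase gene *TTLL7* (-0.71), the spindle genes *ASPM* (-0.67) and *HMMR* (-0.63), and the katanin-like gene *KATNBL1* (-0.66). *ASPM* and *HMMR* were named for other comparisons, and *KATNBL1* was chosen after its values were seen. *MZT2A* was 30.6 and 30.0 CPM in unstimulated and 44.2 and 52.5 CPM in IFNγ-treated siPDL1-2 cells, against 41.2 and 48.0 and then 39.6 and 27.2 CPM in siNC cells, where the libraries of a group lie far apart. Its FDR ranged up to 0.0295 when single libraries were left out, and that of *SPAST* up to 0.0462. The *SPAST* call was also lost by edgeR (FDR 0.0138), with the size factors of DESeq2 (0.0143), with plain CPM (0.0122), with a pseudocount of 0.1 (0.0102) and without the filter on low counts (0.0154). The calls rest on 2 libraries per group.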

How the results depend on the processing

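Alternatives were run gene by gene for the members and for the genes named by the rule in their own comparisons. Among these, no log2 difference past both thresholds changed sign, but small differences that had not passed did. With plain CPM, the sign turned for *MAPRE1* with IFNγ in siPDL1-2 cells (-0.0333) and, between the siRNAs after IFNγ, for *TUBA1B* (-0.000258) and *TUBB6* (-0.0114). *TUBB3* with siPDL1-1 unstimulated was -0.0332 by edgeR, -0.0206 by DESeq2 and -0.0206 with its size factors, and *MAPRE2* between the siRNAs unstimulated was 0.00068 and 0.000495 by the last pair. Leaving out each library in turn spanned zero for *STMN1* with IFNγ in siNC cells (-0.0538 to 0.0226), for *TUBB3* with siPDL1-1 unstimulated (-0.00982 to 0.0179) and after IFNγ (-0.012 to 0.249), and, between the siRNAs, for *MAPRE2* unstimulated (-0.0517 to 0.0319) and after IFNγ (-0.0111 to 0.111) and *TUBB6* after IFNγ (-0.0282 to 0.0656). It did so in the siPDL1-1 interaction for *TUBB3* (-0.0161 to 0.245), *TUBB6* (-0.0551 to 0.0754) and *MAP1B* (-0.0277 to 0.0316), and in that of siPDL1-2 for *MAPRE3* (-0.0234 to 0.0566). The cause was not tested. Dropping the fold threshold (limma FDR < 0.01) gave, for IFNγ in siNC, siPDL1-1 and siPDL1-2 cells, 4901, 4122 and 3080 genes, 57, 53 and 34 listed genes and 7, 3 and 3 members. For siPDL1-1 and siPDL1-2 against siNC it gave 3379 and 5107 genes unstimulated and 4277 and 3300 after IFNγ, with 47, 59, 50 and 45 listed genes, and 7 members with siPDL1-2 in each state. Between the siRNAs it gave 4338 and 1882 genes, 45 and 26 listed genes and 4 and 3 members, and in the interactions 293 and 3067 genes, 1 and 32 listed genes and, for siPDL1-2, 1 member. With a pseudocount of 0.1, 8 listed genes were called for IFNγ in siNC cells. Leaving out each library in turn gave 5 to 8 listed genes for IFNγ in siNC cells (highest without siNC IFNγ replicate 1), 5 to 12 with siPDL1-1 (highest without siPDL1-1 IFNγ replicate 1) and 3 to 7 with siPDL1-2. It gave 4 to 10 for siPDL1-2 against siNC after IFNγ, 0 to 1 for the siPDL1-1 interaction, and 6 to 15 listed genes, 888 to 1663 genes and 0 to 1 members for the siPDL1-2 interaction, with the upper values of 7, 10, 1, 15, 1663 and 1 found without siNC IFNγ replicate 1 and that of 888 without siPDL1-2 IFNγ replicate 2. A lone sample was then assumed to vary like the other groups. Same-numbered libraries correlated in their deviations by -0.132 to 0.193 over 17982 genes, not all over 0.1, so pairing by number was not shown, although the study names 2 experiments. With the replicate block, 721, 1111, 981 and 558 genes were called against siNC. It ended the calls of *MAP1S* for IFNγ in siPDL1-2 cells (limma FDR 0.0105) and of *MZT2A* (0.0124) and *SPAST* (0.0122) in the siPDL1-2 interaction, and no other call among the genes named by the rule. The 2 libraries per group limit every p-value, and *STMN3* had 218 to 1232 reads in a library.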
